A study of Astyanax mexicanus with 6 samples.

Results

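The genes described here are 10 genes of the circadian clock, 4 period genes (*per1a*, *per1b*, *per2* and *per3*), both clock genes (*clocka* and *clockb*), the repressor genes *nr1d1*, *nr1d2a* and *bhlhe40*, and the output gene *tefa*. They were chosen by name, with earlier results of these data known, and all 10 were found among the 27420 genes that the count and TPM tables list. RNA was sequenced from embryonic fibroblast lines of the Mexican tetra, *Astyanax mexicanus*: SEF, derived from surface fish, and PEF, derived from Pachón cavefish. Both lines are labelled wild type with no treatment named, and were kept at 28 °C without added carbon dioxide in serum-containing medium that was changed 3 times per week. Each line was sequenced as 3 libraries from similar passage numbers. The lines were cloned from cells of pooled embryos, so the spread between libraries does not cover differences between animals or clones. The labels do not say whether the replicates were separate cultures, and p-values measure only the spread between these libraries, which may be technical. Neither the labels nor the study's methods give the hour of harvest or the lighting of the cultures. A difference in the amplitude or mean level of a rhythmic gene and a difference in clock phase therefore cannot be told apart in these libraries, and nor can fewer expressing cells and less RNA per cell.

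The vertebrate clock is a feedback loop that runs in most cells. CLOCK proteins pair with BMAL proteins, encoded by the *arntl* genes, and activate the period, cryptochrome, *nr1d*, *bhlhe40* and *tef* genes. Period and cryptochrome proteins then repress the CLOCK and BMAL pair, while the nuclear receptors of the *nr1d* genes repress the *arntl* genes and those of the *ror* genes activate them. *tefa* encodes a bZIP factor of the family of TEF, DBP and HLF, which passes the rhythm on to other genes and competes with the repressor NFIL3. Teleost cells in culture are themselves light-sensitive, and in zebrafish *per2* and *cry1a* are induced by light.

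Reads on genes numbered between 33381563 and 42506026 per library. Each of the 10 genes had at least 18 reads in every library, so all of them were tested. The 12 listed fibroblast markers summed to between 8497 and 11911 TPM (an expression level scaled for gene length and library size) in SEF and between 8944 and 15273 TPM in PEF, mostly type I collagen. Of the 12 fibroblast markers, 4 were called higher and 4 lower in PEF, against 30.4% and 33.1% of all tested genes by the test given below. The gene listed as *vim*, for vimentin, was low in both, from 0.88 to 4.14 TPM. By antibody staining, which measures protein, the study reported stable vimentin in both lines. The 14 retina and pineal markers, from tissues with prominent clocks, summed to between 0.55 and 1.01 TPM in SEF and between 1.20 and 1.79 TPM in PEF. Of 3 tested, 2 were called higher in PEF, against 30.4% of all tested genes. These were *crx* and *sagb*, on few reads, 12 to 73 and 4 to 16 per library. *rho* was at 0 TPM in all 6 libraries.

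Of the 10 genes, 6 were lower in PEF, 0 were higher and 4 did not pass the test. The genes that fell were *per1a*, *per1b*, *per2*, *nr1d1*, *tefa* and *bhlhe40*. Expression in PEF was compared with that in SEF by edgeR's quasi-likelihood test on the read counts, with Benjamini-Hochberg adjustment over all 16670 tested genes and a threshold of 0.05. By this rule 63.5% of all tested genes were called, 30.4% higher and 33.1% lower in PEF. The 6 calls are 60.0% of the 10 genes, near the share of all genes, while their direction was the same for all 6. That shared direction was not tested, because the genes were chosen with earlier results known and several of them vary together. The median log2 fold change, PEF over SEF, was −1.32 over the 10 genes and −0.02 over all tested genes. All libraries of 1 line stood above all of the other for 7 of the 10 genes, 6 lower and 1 higher in PEF, against 70.8% of all tested genes, 36.7% lower and 34.2% higher. The plot of TPM by library shows the 10 genes side by side.

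**Figure D1:**
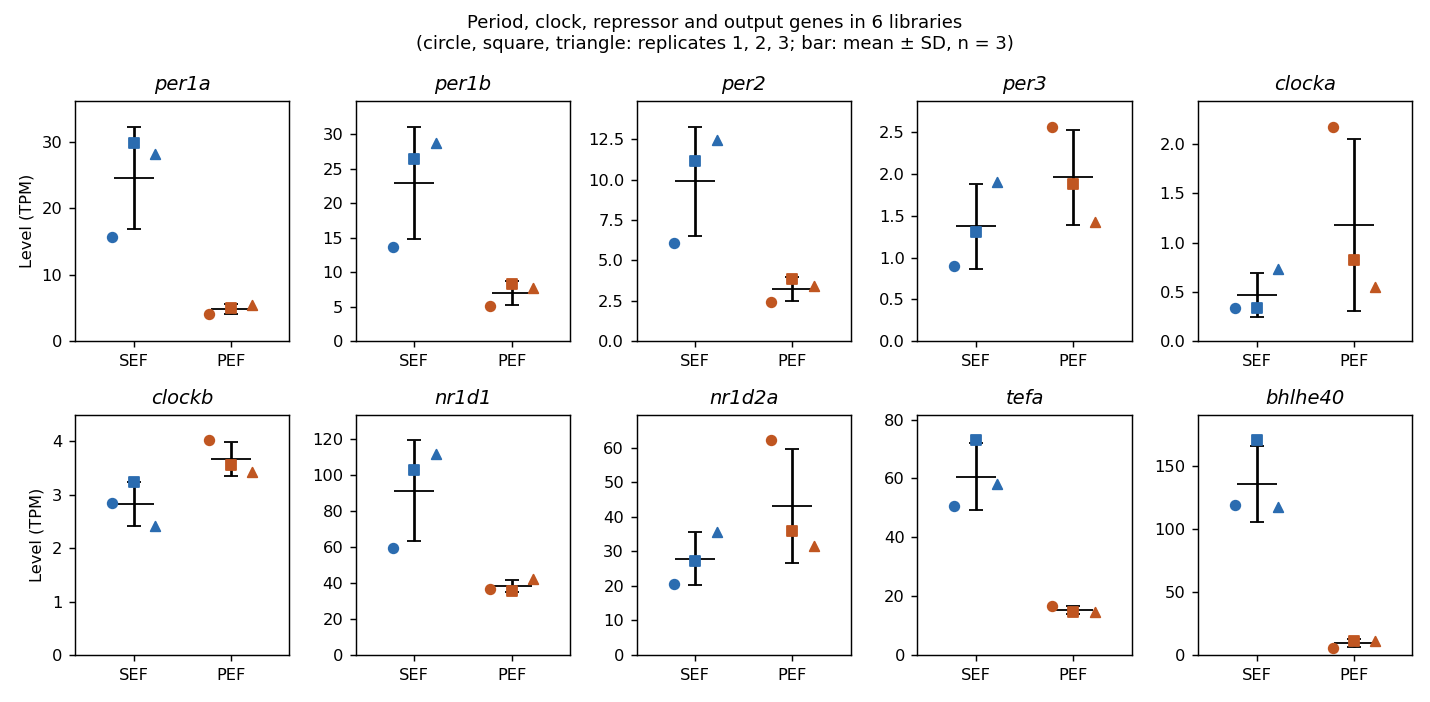
Level of each of the 10 genes in TPM (y axis, linear and starting at 0) in the 3 SEF (blue) and 3 PEF (orange) libraries, with the mean and SD of each line. All PEF libraries lie below all SEF libraries for *per1a*, *per1b*, *per2*, *nr1d1*, *tefa* and *bhlhe40*, the lines overlap for *per3*, *clocka* and *nr1d2a*, and *clockb* lies slightly higher in PEF.

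Among the period genes, whose proteins form the repressing complex of the loop, *per1a*, *per1b* and *per2* were lower in PEF. *per1a* (ENSAMXG00000019909) was expressed at 15.66, 29.81 and 28.11 TPM in SEF replicates 1, 2 and 3 and at 4.05, 4.97 and 5.43 TPM in PEF replicates 1, 2 and 3. The lines did not overlap, and SEF replicate 1 was the lowest library of its line. The level of *per1a* was 4.80-fold lower in PEF (log2 fold change −2.26, SE 0.27, edgeR adjusted p = 0.000292, with SE the standard error). *per1b* (ENSAMXG00000018625) was at 13.64, 26.43 and 28.79 TPM in SEF and at 5.03, 8.25 and 7.63 TPM in PEF. Replicate 1 was again the lowest library in each line, and no PEF library reached the lowest SEF library. The fall of *per1b* was 2.99-fold (log2 fold change −1.58, SE 0.33, edgeR adjusted p = 0.00451).

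*per2* (ENSAMXG00000001431), the light-inducible period gene of zebrafish, was at 6.05, 11.17 and 12.46 TPM in SEF and at 2.40, 3.87 and 3.44 TPM in PEF. The lowest SEF library stood above the highest PEF library. *per2* was 2.79-fold lower in PEF (log2 fold change −1.48, SE 0.32, edgeR adjusted p = 0.00500). *per3* (ENSAMXG00000003662) had 0.90, 1.31 and 1.91 TPM in SEF and 2.57, 1.88 and 1.43 TPM in PEF. Its ranges overlapped, and its log2 fold change of 0.60 did not pass the test (95% confidence interval −0.11 to 1.30, edgeR adjusted p = 0.118). Without SEF replicate 3 *per3* was called higher in PEF, at 0.88 (edgeR adjusted p = 0.0338). It was not called when any other single library was left out, and was lowest, at 0.36, without SEF replicate 1 (edgeR adjusted p = 0.273). With a threshold of 1 on the log2 scale built into the test, *per1a* stayed called while *per1b* (edgeR adjusted p = 0.0600) and *per2* (edgeR adjusted p = 0.0852) did not. That test called 3 of the 10 genes, all lower, against 30.6% of all tested genes in either direction and 18.7% lower.

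The activator genes *clocka* and *clockb* had low levels in both lines, and neither passed the test. *clockb* (ENSAMXG00000021792) was at 2.84, 3.24 and 2.42 TPM in SEF and at 4.02, 3.56 and 3.43 TPM in PEF. Every PEF library was above every SEF library, by a small margin. Its log2 fold change was 0.37 (95% confidence interval 0.01 to 0.73, edgeR adjusted p = 0.0692). In the RefSeq assembly AstMex3_surface *clockb* overlaps *lap3*, a peptidase gene that rose by 1.16 on the log2 scale (edgeR adjusted p = 3.93e-05). Whether the counting used strand is not given in the sources used here, so the value of *clockb* is uncertain to that extent. *clocka* (ENSAMXG00000005565) had 18, 20 and 53 reads in SEF and 129, 60 and 35 reads in PEF. PEF replicate 1 was high and the other libraries overlapped. Its log2 fold change of 1.34 had a 95% confidence interval from −0.11 to 2.79 (edgeR adjusted p = 0.0943). *clocka* was called without SEF replicate 3, at 1.97 (edgeR adjusted p = 0.0412), and without PEF replicate 3, at 1.70 (edgeR adjusted p = 0.0420), but was at 0.62 without PEF replicate 1 (edgeR adjusted p = 0.313).

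Of the repressor genes, *bhlhe40* showed the largest fall of the 10 genes and *nr1d1* a smaller one. *bhlhe40* (ENSAMXG00000036916), whose product (also called DEC1) binds the same E-box elements as CLOCK and BMAL, was at 119.62, 170.81 and 117.89 TPM in SEF. In PEF it was at 5.65, 11.06 and 11.04 TPM. The lines were far apart, and PEF replicate 1 was the lowest library. *bhlhe40* was 13.6-fold lower in PEF (log2 fold change −3.76, SE 0.32, edgeR adjusted p = 6.81e-05), and 13.6% of tested genes had a larger change in either direction. In the same RefSeq assembly an unnamed long noncoding RNA gene overlaps *bhlhe40*. As for *clockb*, it is not known whether the counting used strand, so the value of *bhlhe40* is uncertain to that extent.

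*nr1d1* (ENSAMXG00000015855), which encodes the nuclear receptor REV-ERB alpha, a repressor of the *arntl* genes, was at 59.49, 102.85 and 112.03 TPM in SEF and at 36.71, 35.85 and 42.20 TPM in PEF. PEF libraries were close to each other and all below SEF replicate 1, the lowest SEF library. *nr1d1* was 2.25-fold lower in PEF (log2 fold change −1.17, SE 0.24, edgeR adjusted p = 0.00393), and it was not called in the test against 1 (edgeR adjusted p = 0.260). *nr1d2a* (ENSAMXG00000002749), a gene of the related receptor REV-ERB beta, was at 20.48, 27.30 and 35.72 TPM in SEF and at 62.14, 35.95 and 31.66 TPM in PEF. Here the lines overlapped, with PEF replicate 1 the highest library. The log2 fold change of *nr1d2a* was 0.70 (95% confidence interval −0.01 to 1.41, edgeR adjusted p = 0.0776). It was called without SEF replicate 3, at 0.93 (edgeR adjusted p = 0.0418), or without PEF replicate 3, at 0.90 (edgeR adjusted p = 0.0388). Without PEF replicate 1, its highest library, it was at 0.38 (edgeR adjusted p = 0.200).

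The output gene *tefa* (ENSAMXG00000008798) was at 50.58, 72.92 and 58.23 TPM in SEF and at 16.68, 14.46 and 14.54 TPM in PEF. The lines did not overlap, and the PEF libraries differed little from each other. *tefa* was 3.98-fold lower in PEF, at a log2 fold change of −1.99, and its standard error of 0.14 was the smallest of the 10 genes (edgeR adjusted p = 2.62e-05). Leaving out each library in turn gave log2 fold changes from −2.11 to −1.88 for *tefa*, from −3.92 to −3.47 for *bhlhe40*, from −2.51 to −2.11 for *per1a* and from −1.41 to −0.99 for *nr1d1*. The 6 calls were made in each of these fits.

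The order of the levels differed between the lines. In SEF the mean TPM was highest for *bhlhe40* (136 ± 30.1, SD, n = 3), followed by *nr1d1* (91.5 ± 28.1), *tefa* (60.6 ± 11.4), *nr1d2a* (27.8 ± 7.63), *per1a* (24.5 ± 7.73), *per1b* (23.0 ± 8.15), *per2* (9.89 ± 3.39), *clockb* (2.83 ± 0.410), *per3* (1.37 ± 0.508) and *clocka* (0.470 ± 0.225). Of neighbours in that order, *nr1d1* and *tefa*, *nr1d2a* and *per1a*, and *per1a* and *per1b* had overlapping libraries. In PEF the highest mean TPM was that of *nr1d2a* (43.3 ± 16.5, SD, n = 3) and *nr1d1* (38.3 ± 3.44), whose libraries overlapped, followed by *tefa* (15.2 ± 1.26). *bhlhe40*, first in SEF, was the fourth in PEF, at 9.25 ± 3.12 TPM (SD, n = 3), with libraries overlapping those of *per1b* (6.97 ± 1.71 TPM). *per1a* (4.82 ± 0.703), *clockb* (3.67 ± 0.310), *per2* (3.24 ± 0.756), *per3* (1.96 ± 0.574) and *clocka* (1.18 ± 0.874) followed. The libraries of *per1b* and *per1a* overlapped, those of *per1a* and *clockb* did not, and from *clockb* on each overlapped the next. Overlap here compares ranges over libraries, and some of these orders held within each library. In every SEF library *nr1d1* was above *tefa*. In every PEF library *bhlhe40* was above *per1b*, *per1b* above *per1a*, and *per3* above *clocka*.

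Within a line, some of the 10 genes deviated together from one library to another. For *per1b* and *per2* the deviations of log2(CPM), reads scaled to library size with TMM, from the mean of the line had a Pearson correlation of 0.999 over the 6 libraries. The correlations were 0.96 for *per1a* with *per1b*, 0.95 for *per1a* with *per2*, and 0.94, 0.87 and 0.87 for *nr1d1* with *per1a*, *per1b* and *per2*. These 4 genes were lowest in SEF replicate 1, at −0.68 to −0.56 from the mean of SEF. They were also lowest in PEF replicate 1 within PEF, as was *bhlhe40*, at −0.31 for *per1a*, −0.51 for *per1b*, −0.47 for *per2*, −0.12 for *nr1d1* and −0.73 for *bhlhe40*. *nr1d2a* followed another pattern, with correlations of 0.94 with *clocka* and 0.89 with *per3*, and all 3 were highest in replicate 3 of SEF and in replicate 1 of PEF. Of the 45 pairs, these 8 exceeded 0.8. All of these values share the same 6 libraries and their scaling, and are given as a description.

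**Figure D2:**
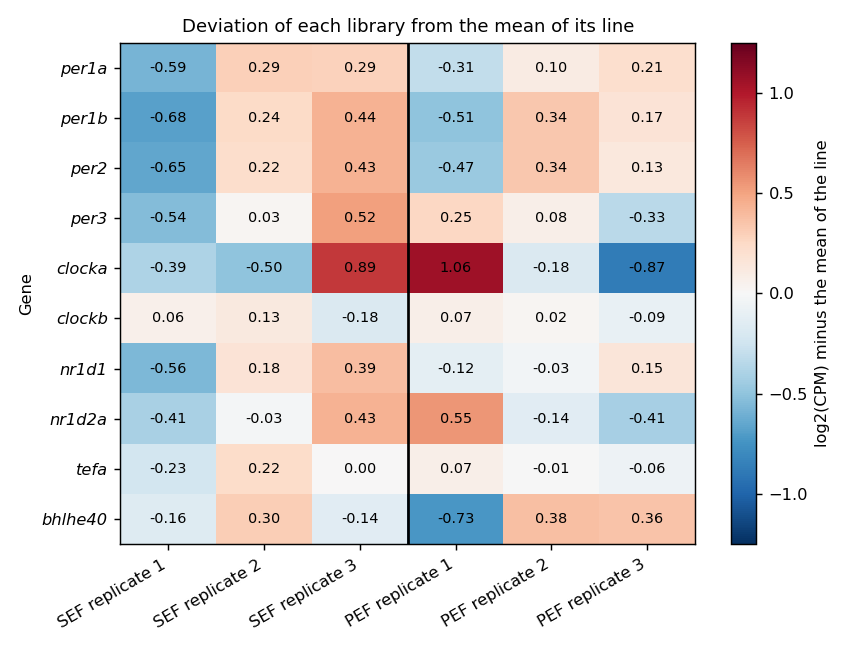
Heat map of the deviation of each library (columns) from the mean of its line, in log2(CPM), for the 10 genes (rows), with blue below and red above the mean. The rows of *per1a*, *per1b*, *per2* and *nr1d1* share a low SEF replicate 1 (−0.68 to −0.56), and *clocka* and *nr1d2a* share a high PEF replicate 1 (1.06 and 0.55).

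Teleosts carry duplicates of several clock genes, and the share of each gene in 5 pairs of related genes was compared between the lines. No pair passed a test after adjustment, since 3 libraries against 3 cannot give a p below 0.1. *per1a* made up 53.4%, 53.0% and 49.4% of the summed TPM of *per1a* and *per1b* in SEF and 44.6%, 37.6% and 41.6% in PEF. All PEF shares were below all SEF shares, a mean difference of −10.7 percentage points (two-sided exact permutation test, p = 0.1, the smallest the design allows). For *clocka* in *clocka* and *clockb*, the mean share was 14.5% ± 7.58 (SD, n = 3) in SEF and 22.6% ± 11.2 in PEF, with overlapping libraries (two-sided exact permutation test, p = 0.5). With the reads of each pair summed before the fit, *per1a* and *per1b* together fell by 1.88 on the log2 scale (edgeR adjusted p = 0.00124). *clocka* and *clockb* together rose by 0.57 (edgeR adjusted p = 0.0295), a call that was lost under the replicate block (edgeR adjusted p = 0.0585) and without each library in turn except PEF replicate 3.

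Shares in 3 further pairs were computed after the values were seen. *bhlhe40* took 90.5% to 93.0% of the TPM of *bhlhe40* and *bhlhe41* in SEF and 18.6% to 37.5% in PEF, so that the more abundant gene of the pair differed between the lines. *tefa* took 49.4% to 55.7% of the TPM of *tefa* and *tefb* in SEF and 25.0% to 28.8% in PEF. *nr1d2a* took 45.3% to 51.4% of the TPM of *nr1d2a* and *nr1d2b* in SEF and 65.1% to 85.1% in PEF. The lines did not overlap in any of the 3 pairs, each at p = 0.1 in the two-sided exact permutation test and 0.125 after Benjamini-Hochberg adjustment over the 5 pairs, the same as for *per1a*.

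**Figure D3:**
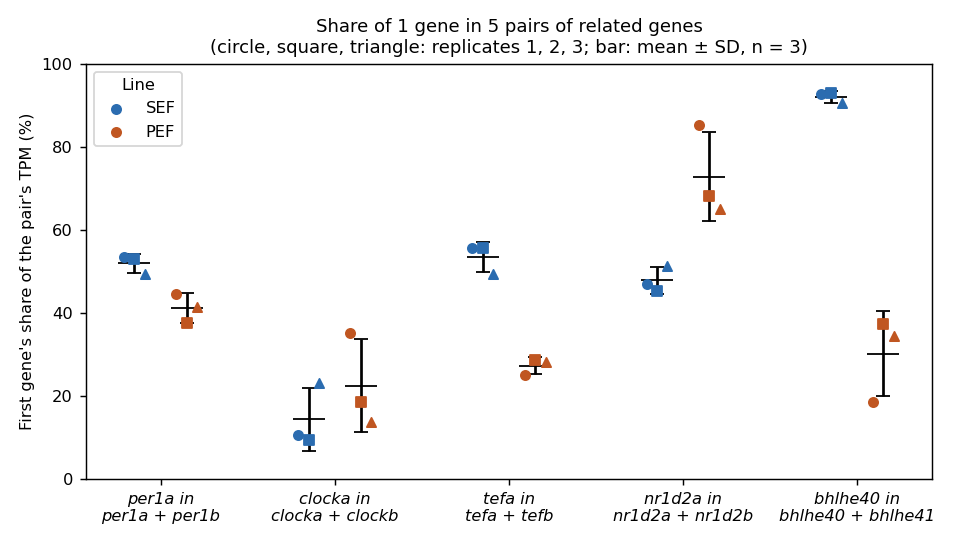
Share of the first gene in the summed TPM of 5 pairs of related genes (y axis, percent) in the SEF (blue) and PEF (orange) libraries, with the mean and SD of each line. *bhlhe40* goes from a mean of 92.0% in SEF to 30.2% in PEF, *tefa* from 53.6% to 27.3% and *nr1d2a* from 47.9% to 72.8%, while the shares of *clocka* overlap.

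Other genes of the clock were compared in the same fit. Of 49 such genes in the tables, 46 had enough reads for a test, and 25 of these (54.3%) were called, 10 higher and 15 lower in PEF. This share lies under the 63.5% of all tested genes. Their median log2 fold change was −0.19, against −0.02 for all tested genes.

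In the positive arm, the BMAL genes *arntl1a* and *arntl1b*, which *nr1d1* products repress, did not pass the test. *arntl1a* was at 14.0 ± 1.01 TPM in SEF and 13.2 ± 1.21 TPM in PEF (SD, n = 3 each), which is −0.03 on the log2 scale (95% confidence interval −0.35 to 0.30). For *arntl1b* the log2 fold change was −0.18 (95% confidence interval −0.53 to 0.18). The related BMAL gene *arntl2* rose, from 4.25 ± 0.327 TPM in SEF to 10.2 ± 1.22 TPM in PEF (SD, n = 3 each), by 1.44 on the log2 scale (edgeR adjusted p = 7.93e-05). *npas2*, which encodes a partner that can stand in for CLOCK, fell by 3.30 on the log2 scale (edgeR adjusted p = 0.00427). It had 30 to 116 reads in SEF and 2 to 12 in PEF. *npas2* was at −4.06 without PEF replicate 1 and at −2.73 without SEF replicate 3. Of the *ror* genes, *rorc* rose by 3.63 and *rorcb* fell by 0.90 (edgeR adjusted p = 5.36e-05 and 0.0120), and *rorab* and *rorca* were not called, at 0.31 and 0.61.

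In the negative arm 6 of 12 tested genes (50%) were called, 3 in each direction. Of all tested genes 63.5% were called, 30.4% higher and 33.1% lower. *ciarta*, whose mammalian counterpart CIART represses the CLOCK and BMAL pair, fell by 1.84 on the log2 scale, from 48.3 ± 19.9 TPM in SEF to 13.1 ± 1.30 TPM in PEF (SD, n = 3 each, edgeR adjusted p = 0.00159). The cryptochrome gene *cry1b* fell by 2.15 and the REV-ERB beta gene *nr1d2b* by 0.92 (edgeR adjusted p = 0.000226 and 0.0129). *bhlhe41*, the gene of DEC2 and closest relative of *bhlhe40*, rose by 0.99 on the log2 scale (edgeR adjusted p = 0.000840), from 9.47, 12.87 and 12.44 TPM in SEF to 24.72, 18.43 and 20.86 TPM in PEF. *nr1d4b*, of the same receptor family as *nr1d1*, rose by 1.40 (edgeR adjusted p = 0.00216). *cry3b* was called at 0.64 (edgeR adjusted p = 0.0455) but not in 11 of its 15 alternatives. *cry1a*, like *per2* a light-induced gene in zebrafish, was at 37.0 ± 2.68 TPM in SEF and 40.4 ± 0.296 TPM in PEF (SD, n = 3 each), which is 0.12 on the log2 scale (95% confidence interval −0.11 to 0.35). *cry2*, *ciartb*, *nr1d4a*, *timeless* and *tipin* were not called either, with log2 fold changes from −0.43 to −0.07.

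The output factors related to *tefa* changed in both directions. *dbpb* fell by 3.55 on the log2 scale, from 6.43, 13.17 and 12.76 TPM in SEF to 0.88, 0.93 and 0.88 TPM in PEF (edgeR adjusted p = 6.14e-05), and *dbpa* fell by 0.76 (edgeR adjusted p = 0.0100). *hlfa* rose by 0.75 (edgeR adjusted p = 0.00136). The direct duplicate *tefb* was at 52.7 ± 10.7 TPM in SEF and 41.0 ± 7.88 TPM in PEF (SD, n = 3 each) and was not called, at −0.27 (95% confidence interval −0.70 to 0.15). *nfil3*, the gene of the repressor that competes with these factors, rose by 1.81 (edgeR adjusted p = 0.000203), from 91.77, 104.42 and 131.27 TPM in SEF to 443.47, 354.53 and 293.97 TPM in PEF. A further gene of that family, *nfil3-4*, had 45, 68 and 19 reads in SEF and 0 in each PEF library. This is at least 14.5-fold lower in PEF when a floor of 3 reads per library is set against SEF (edgeR adjusted p = 0.00201). Such bounds use the mean level in SEF, and cover neither the counting error of the SEF reads nor the spread between libraries.

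Among the kinases and ubiquitin ligases that modify period and cryptochrome proteins or are linked to the loop, 10 of 18 (55.6%) were called. These were 3 higher and 7 lower in PEF, against 63.5% of all tested genes called, 30.4% higher and 33.1% lower. Of the casein kinase genes, *csnk1a1* fell by 0.75 (edgeR adjusted p = 0.000560), while *csnk1da* and *csnk1db* were not called, at 0.06 and −0.20. *csnk1e* had 11 to 21 reads in SEF and at most 1 in PEF, at least 4.998-fold lower against the floor of 3 reads (edgeR adjusted p = 0.00143). The glycogen synthase kinase genes *gsk3aa* and *gsk3ba* fell by 1.14 and 1.35, and *gsk3ab* was called at 0.32 but lost its call in 11 of its 15 alternatives. *fbxl3a* and *fbxl3l*, related to the mammalian gene of the ligase that marks cryptochromes for degradation, fell by 0.78 and 2.49. *fbxw11b*, a beta-TrCP gene, rose by 0.87. The ubiquitin protease gene *usp2b*, whose mammalian relative is a clock-controlled gene, rose by 4.23 (edgeR adjusted p = 0.000833). It had 43 to 187 reads in SEF and 1025 to 3200 in PEF. *usp2b* was at 5.01 without SEF replicate 3 and at 3.68 without PEF replicate 2. Its duplicate *usp2a* fell by 0.53. The call of *usp2a* was lost without PEF replicate 2 (edgeR adjusted p = 0.0502). The plot of log2 fold changes gives all of these genes with their intervals.

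**Figure D4:**
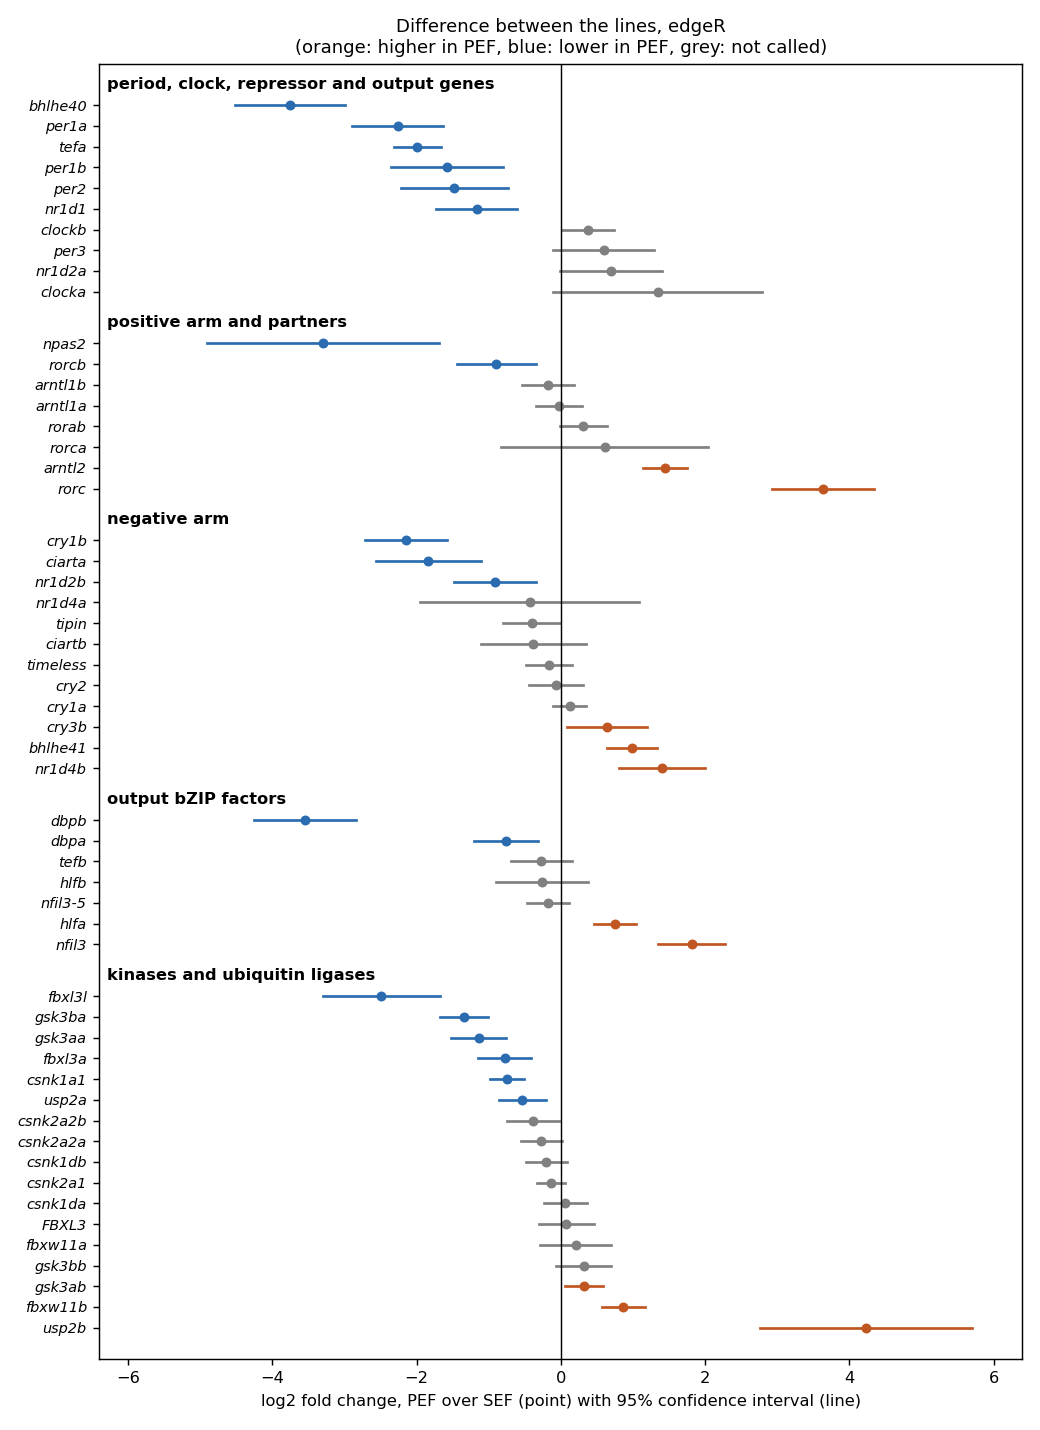
Log2 fold change, PEF over SEF (x axis), with its 95% confidence interval from edgeR for the 10 genes and the other tested clock genes, by role; orange is higher in PEF, blue lower and grey not called. The 6 called genes of the top group lie between −3.76 and −1.17, and its 4 uncalled genes lie above 0, between 0.37 and 1.34. Each of the other groups holds called genes on both sides of 0. *nfil3-4* and *csnk1e*, given as bounds in the text, are not drawn.

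Genes known as light-induced in teleost cells, a list that includes *per2* and *tefa*, were called in both directions. Of the 11 genes, 7 (63.6%) were called, 3 higher and 4 lower in PEF, near the 63.5% of all tested genes. *ddb2* and *cry5* rose by log2 fold changes of 2.42 and 1.40. The remaining calls, named after their values were seen, were a rise of *xpc* and falls of *lonrf1* and *lonrf1l*. Of 24 non-visual opsin genes, candidates for light sensing in such cells, 22 stayed under 1 TPM in every library and 2 were tested. This count depended on the filter. Without any 1 PEF library 4 of 4 tested were called (1 higher, 3 lower), against 56% to 63.8% of all tested genes. With no filter on low counts 7 of 19 were called (1 higher, 6 lower), against 49.7% of all genes, 22.6% higher and 27.1% lower. *opn3* fell by 3.79 (edgeR adjusted p = 0.00422) on 28 to 82 reads in SEF and 0 to 6 in PEF, and was at −4.54 without PEF replicate 1 and −3.21 without PEF replicate 3. The melanopsin gene *opn4b* rose by 1.20 (edgeR adjusted p = 0.00273).

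Before freezing, the cells were detached enzymatically and pelleted. Genes that serum, stress or handling induce within minutes moved with the lines as well, most of them opposite to *per1a*, *per1b* and *per2*. Of 22 tested immediate early and serum response genes, 18 (81.8%) were called, 16 higher and 2 lower in PEF, with a median log2 fold change of 1.95. Over all tested genes 63.5% were called, 30.4% higher and 33.1% lower, with a median of −0.02. Their summed level was 1928 to 2322 TPM in SEF and 3325 to 10408 TPM in PEF, with the highest value in PEF replicate 1. *fosb*, *fosl1a* and *nr4a1* rose by 4.97, 4.84 and 4.49 on the log2 scale, and *junba* fell by 7.11. Its duplicate *junbb*, named after its values were seen, rose by 2.28 (edgeR adjusted p = 0.0124). *junbb* was at 149.63 to 233.32 TPM in SEF and 363.19 to 1708.83 TPM in PEF, highest in PEF replicate 1. The value of *fosl1a* was 3.55 without PEF replicate 1, and that of *nr4a1* was 3.83 without PEF replicate 2 and 5.08 without SEF replicate 2. Without PEF replicate 1, 15 genes of this list were called, 13 higher and 2 lower. The 6 falls among the clock genes had log2 fold changes from −3.47 to −1.10 without that library, and the part of this response in them was not tested.

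Of 10 tested glucocorticoid response genes, a list that includes *per1a*, 6 fell and 1 rose, against 33.1% and 30.4% of all tested genes. Named after their values were seen, the falls included the receptor genes *nr3c1* (−0.97) and *NR3C1* (−0.63), and *klf9* (−1.05). Not called were *fkbp5* at 0.06, *TSC22D3* at 0.44 and another gene named *mt2* at 0.93. The activity of the glucocorticoid response was not tested. *cebpd* fell by 4.91 and *hsd11b2* by 3.57 on the log2 scale. *hsd11b2* was at −4.66 without PEF replicate 1 and at −3.09 without PEF replicate 3. The rise was that of a gene named *mt2*, at 2.13, on 5 to 6 reads in SEF and 19 to 32 in PEF. Muscle markers moved in the direction of the 6 falls: 5 of 5 tested were lower in PEF, against 33.1% of all tested genes, with a summed level of the 11 listed from 359 to 611 TPM in SEF and from 38.8 to 53.2 TPM in PEF. *myh11a* and *acta1b* held most of this sum, and *mylz3* was at 0 TPM in every library. Most tested markers of other cell types were called too, as were 63.5% of all tested genes. Epithelial markers were called for 5 of 7 tested genes (1 higher, 4 lower) and neural markers for 4 of 4 (1 higher, 3 lower). Blood markers were called for 3 of 4 (1 higher, 2 lower), endothelial for 4 of 5 (1 higher, 3 lower) and pigment for 4 of 4 (3 higher, 1 lower). Summed levels were 701 to 1035 TPM in SEF and 331 to 1485 TPM in PEF for epithelial markers. They were, in the same order and unit, 13.2 to 31.7 and 5.95 to 5.99 for neural, 52.8 to 66.0 and 29.0 to 35.1 for blood, 99.3 to 142 and 45.0 to 49.0 for endothelial, and 3.04 to 4.81 and 7.50 to 18.5 for pigment markers. Nearly all of the epithelial sum was *krt4*, which was not called, at 698 to 1030 TPM in SEF and 331 to 1485 TPM in PEF. The 5 called epithelial genes stayed at or below 1.66 TPM. A gene named *runx1* (ENSAMXG00000039960) held most of the blood sum, and *kdrl* and *fli1a* held most of the endothelial sum. *epcam* stayed under 1 TPM, and *elavl4*, *gata1a* and *cdh5* were at 0 TPM in all libraries. The part of other cell types in the clock gene differences was not tested.

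Positions were taken only as gene order in the RefSeq assembly AstMex3_surface, because no source used here names the build of the files, and all 10 genes were found there by symbol. By symbol, 11035 tested genes could be placed. Median log2 fold changes of the other placed genes on each gene's chromosome ran from −0.39, for *per2*, to 0.19, for *per1a*. Of the protein-coding genes next to the 10, *pcolcea* beside *per1a* (−2.57), *pcolceb* beside *per1b*, *msl1a* beside *nr1d1* (−0.41) and *itpr1b* beside *bhlhe40* (−0.56) were called lower. *vamp3* beside *per3* (0.41) and *lap3* beside *clockb* (1.16) were called higher. The remaining neighbours were not called or had no test value. The part of position in the clock gene differences was not tested. Likeness to genes outside the 10 was taken over the 6 libraries without removing the mean of each line. Genes that differ between the lines in the same direction therefore correlate, whether or not they vary together within a line. The highest of many such values is also high by selection, and these values are given as a description. The number of named genes whose profile over the 6 libraries had a Pearson correlation above 0.95 ranged from 50 for *per3* to 2382 for *tefa*. It was 75 for *nr1d2a*, 82 for *clocka* and 2187 for *bhlhe40*. The named gene most like *bhlhe40* among 13650 was *dnmt3bb.1* (Pearson r = 0.9996, n = 6 libraries). For *tefa* it was *tbl2* (r = 0.999) and for *per1a* *psma4* (r = 0.999). *per1b* and *per2* shared the same most similar gene, *rrm2b* (r = 0.99 for each), and *nr1d1* was most like *desi1b* (r = 0.998). *per3*, *clocka*, *clockb* and *nr1d2a* were most like *stim2b*, *thbs1a*, *nedd8l* and *ssh1a*, with r = 0.997, 0.999, 0.996 and 0.996.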

How the data were processed

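Bulk RNA sequencing libraries of 2 fibroblast lines, SEF and PEF, were grouped by the line named in their labels, with 3 replicates each. Libraries were made with a stranded mRNA kit from 500 ng of RNA. The authors deposited whole-number read counts per gene and TPM values estimated with RSEM. The submitters' processing notes name STAR 2.7.3a and RSEM. The genome build, annotation and strand setting for these libraries are not given in the sources used here. The 4 rows of reads assigned to no gene were kept out of library sizes and tests. They held 29.3% to 31.7% (outside genes), 4.28% to 4.67% (multimapping), 4.26% to 5.05% (unmapped) and 0.142% to 0.198% (ambiguous), so reads shared by near-identical duplicates may be lost.

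Counts were fitted with edgeR 4.0.16 in R 4.3.3 (TMM, filterByExpr, glmQLFit and glmQLFTest) on the whole table, with Benjamini-Hochberg adjustment and a threshold of 0.05. Standard errors came from the log2 fold change and its F statistic. TPM, which is per length, was used for levels and shares. Genes with at most 3 reads in every library of a line were given as bounds against 3 reads per library. Shares were compared by exact permutation tests, whose smallest p is 0.1. Alternatives were DESeq2 1.42.0, limma 3.58.1 on log2(TPM + 1) or log2(TPM + 0.1), other normalizations and filters, a replicate block, edgeR's glmTreat against a change of 1 on the log2 scale, and leaving out each library. The scripts were tested on simulated data. The named genes were the 10 genes, every other clock gene called, at most 4 called genes by size from each context list, and the most similar named gene for each of the 10. The members and lists were chosen with earlier results of these data known.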

Additional observations from a re-analysis of the deposited data

How the results depend on the processing

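With glmTreat against a change of 1 on the log2 scale, 5103 of all tested genes, 3 of the 10 genes (*per1a*, *tefa* and *bhlhe40*) and 12 of the other clock genes were called. Leaving out each library in turn gave 9289 to 10968 calls over all genes, 6 to 9 over the 10 genes and 22 to 26 over the other clock genes. The summed *clocka* and *clockb* reads had a log2 fold change of 0.55 with a replicate block (edgeR adjusted p = 0.0585). Without each library in turn it was between 0.40 and 0.72, and the call was lost without SEF replicate 1, 2 or 3 (edgeR adjusted p = 0.0820, 0.0838 and 0.0709) and without PEF replicate 1 or 2 (0.0512 and 0.0534). The cause was not tested. Of 148 values of the 10 genes under the alternatives, 140 kept their direction and their side of the threshold, 3 lost a call, 5 gained one and 0 reversed. The replicate numbers were not taken to pair the libraries, because no label says that they mark a shared day or batch. Over all 16670 tested genes, replicates with the same number did not deviate together (Pearson r = −0.04, 0.07 and −0.13). However, in log2(CPM) *per1a*, *per1b*, *per2* and *nr1d1* were lowest in replicate 1 of both lines. For *nr1d1* in PEF the margin was small, at −0.12 from the mean of the line against −0.03 in replicate 2. In TPM its lowest PEF library was replicate 2, at 35.85. Correlations over all genes cannot decide whether some genes are paired by replicate, and this was not tested. With the replicate block the SE was 0.14 for *per1a* and 0.13 for *per1b*, against 0.27 and 0.33 without it. With that block 9735 of all tested genes, 6 of the 10 genes and 24 of the other clock genes were called. The difference in the *per1a* share lay between −12.4 and −8.86 percentage points, and that in the *clocka* share between 1.82 and 12.5, without each library in turn. From reads in place of TPM the differences were −11.5 and 9.32, and both of these alternatives were chosen after seeing the data. Of the 10 genes *clocka* had the fewest reads, 18 to 129 per library. The opsin calls ranged from 1 to 7 over the alternatives, in which 1 to 19 opsin genes were tested.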
